A study of Mus musculus with 28 samples.

Results

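Wild-type Tet2 was compared with an empty vector on day 10 of reprogramming, in 8 of the 28 ATAC-seq libraries of a mouse reprogramming series. The 4 libraries of Tet2-WT and the 4 of the empty pMXs retrovirus were chosen by their titles. The starting cells of both groups were embryonic day 12.5 mouse embryonic fibroblasts (MEFs) of the strain background V6.5 129XBI/6. They were Tet2-/- and carried rtTA and doxycycline-inducible OKSM, the reprogramming factors Oct4, Klf4, Sox2 and Myc. Both groups therefore lacked endogenous Tet2, and Tet2-WT cells differed from their controls by a retroviral Tet2. Per the labels' protocols, both were grown on Mito-C-treated MEF feeder cells in doxycycline, LIF, PD0325901 and CHIR99021, and both were sorted on SSEA1-RFP. SSEA1 is a surface antigen that reprogramming cells gain on the way to pluripotency. The retroviral promoter drives Tet2 in whichever cells were infected, and the share of infected cells is not given in the sources used here. Whether the 4 replicates of a vector came from different cultures or animals is not given, so each p-value reflects variation among libraries that could be technical. The MEF libraries used below are of untreated control MEFs from the same background, without the SSEA1-RFP sort. The Tet2-E libraries used below carried a stalling mutant of Tet2 instead of the wild-type enzyme.

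TET2 is a dioxygenase that oxidises 5-methylcytosine in DNA to 5-hydroxymethylcytosine and then to 5-formylcytosine and 5-carboxylcytosine, steps that lead to demethylation. In fibroblasts that turn into pluripotent cells, somatic enhancers are switched off and pluripotency enhancers, many of them methylated in fibroblasts, become accessible. The comparison asks whether returning the full enzyme to Tet2-deficient cells changed where chromatin was open by day 10. ATAC-seq marks open chromatin because a transposase inserts adapters only where DNA is exposed.

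At an adjusted p under 0.05, 0 regions (0% of those tested, Fisher's exact test) and 0 windows of 1 Mb (0%, limma) passed. With 4 against 4 libraries, no region could pass unless 57.1% of those tested changed completely. The count of 0 regions therefore does not show that Tet2-WT and the empty vector were alike. Peaks were merged into 84557 regions, of which 49946 were called in at least 2 of the 8 libraries and were tested. A library calls a region when 1 of its peaks overlaps it. Called in 4 of 4 Tet2-WT and 0 of 4 empty vector libraries were 129 regions (0.258% of those tested), and 40 showed the opposite pattern (0.0801%). These 40 were called in MEF libraries more often than the 129. The 4 MEF libraries called on average 20.3% of the 129 regions present with Tet2-WT only and 45.6% of the 40 present with the empty vector only. Over all regions tested they called on average 42.8%, so the 40 lay near that share and the 129 below it. Among regions called in 2 Tet2-WT and 2 empty vector libraries they called on average 33.9%. The 40 lay above that share and the 129 below it.

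The lists of the Tet2-WT group were more variable in length than those of the empty vector group. On chromosomes 1 to 19 and X, Tet2-WT replicates 1 to 4 held 40669, 50552, 36365 and 30794 peaks, and empty vector replicates 1 to 4 held 40989, 36979, 37140 and 31170 peaks. The longest and the shortest of the 8 lists were thus both from Tet2-WT, and the groups overlapped. The mean was 39595 ± 8349 peaks with Tet2-WT and 36570 ± 4049 with the empty vector (SD, n = 4 each), a difference smaller than the spread between libraries (2-sided exact permutation p = 0.686, adjusted p = 0.771 over 9 measures). Without Tet2-WT replicate 2 the difference changed sign, to -627 peaks.

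Peaks covered 8.82, 10.1, 7.26 and 5.31 Mb in Tet2-WT replicates 1 to 4, and 8.01, 6.76, 6.61 and 5.56 Mb in empty vector replicates 1 to 4. The median peak was 169, 153, 155 and 135 bp wide in the 4 Tet2-WT libraries, against 151, 142, 136 and 140 bp in the 4 empty vector libraries. Replicates 1, 2 and 3 of Tet2-WT were therefore wider than every empty vector library, and replicate 4 was narrower than all of them. Neither covered length (exact permutation p = 0.343) nor width (p = 0.257) passed, and both had an adjusted p of 0.669. The background pileup, the expected number of fragments at a genome position as inferred from the peak lists, was 0.619, 0.587, 0.532 and 0.395 with Tet2-WT and 0.506, 0.495, 0.482 and 0.420 with the empty vector. It was highest in the same 3 Tet2-WT libraries that had the wide peaks and lowest in the 4th (exact permutation p = 0.286, adjusted p = 0.669), and without that library the background pileups of the vectors did not overlap (difference 0.104, exact permutation p = 0.0286, not past adjustment). Its part in widths and counts cannot be told apart from the vector here.

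**Figure D1:**
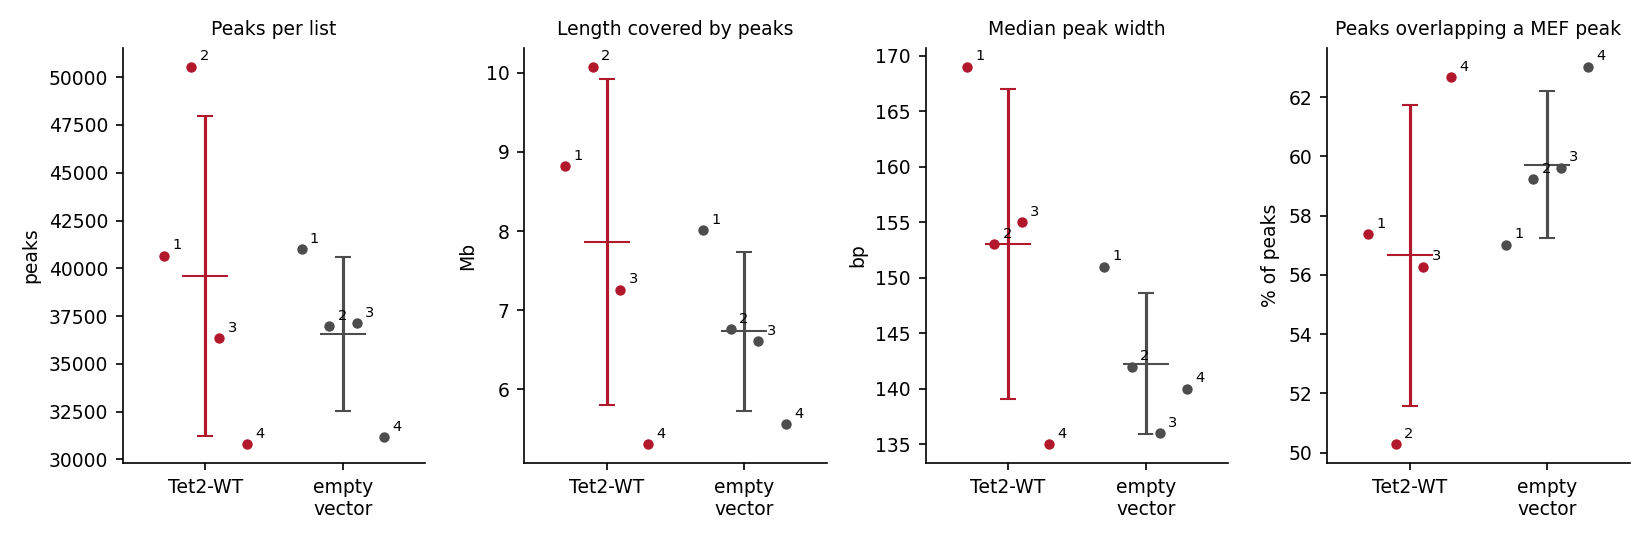
Peaks per list, length covered by peaks in Mb, median peak width in bp and the percentage of peaks that overlap any MEF peak, for the 4 Tet2-WT and the 4 empty vector libraries of day 10. Points are libraries marked by replicate number, and horizontal and vertical bars are the mean and SD. The Tet2-WT lists run from 30794 to 50552 peaks and the empty vector lists from 31170 to 40989, and the groups overlap in each panel.

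All 8 libraries called 13022 regions, 26.1% of those tested, and these were wide, with a median width of 478 bp against 245 bp over all regions tested. A further 34611 regions were called in a single library and were not tested. Tet2-WT replicate 2 alone held 9914 of them, which is 20.7% of the regions it called, against 7.53% to 11.7% in the other Tet2-WT libraries and 8.32% to 12.9% in the empty vector libraries. Of the regions tested, 29.8% were called in more Tet2-WT than empty vector libraries, 20.7% in fewer and 49.6% in equally many. Within the 13022 constant regions, peaks covered 54.6% to 74.3% of the region length in Tet2-WT libraries and 56.4% to 67.8% in empty vector libraries (exact permutation p = 0.4).

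**Figure D2:**
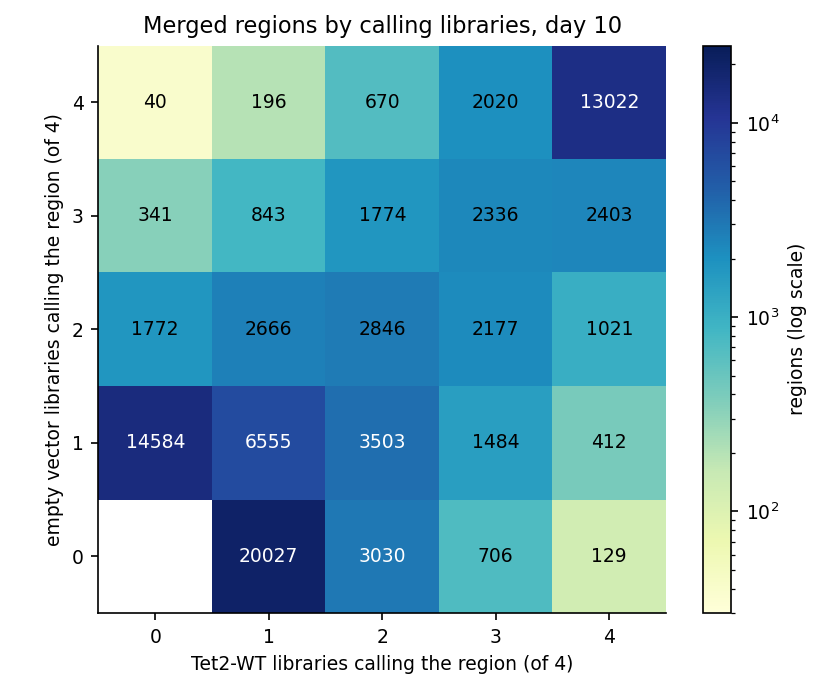
Number of merged regions by how many of the 4 Tet2-WT libraries (horizontal axis) and how many of the 4 empty vector libraries (vertical axis) called them, with colour on a log scale. The corner with 4 Tet2-WT and 0 empty vector libraries holds 129 regions, the opposite corner 40 and the shared corner 13022.

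Whole lists were no more alike within a vector than between vectors. The Jaccard index, the base pairs shared by 2 lists over those covered by either, averaged 0.402 among Tet2-WT libraries (range 0.358 to 0.453) and 0.411 among empty vector libraries (0.394 to 0.420). Between a Tet2-WT and an empty vector library it averaged 0.407 (0.362 to 0.452). The within-vector mean exceeded the between-vector mean by 0.000101 (2-sided exact permutation p = 1).

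The 129 regions present with Tet2-WT only and the 40 present with the empty vector only reached p = 0.0286 by a 2-sided Fisher's exact test, the smallest value that 4 against 4 libraries allow, and an adjusted p of 1. Together they were 169 regions, 0.338% of those tested, and all 169 regions at unadjusted p under 0.05. With this design no region can pass correction unless 57.1% of the regions tested change completely, so the test could not call a smaller set. Just short of complete, 706 regions were called in 3 Tet2-WT and 0 empty vector libraries and 341 in the mirrored pattern. Another 412 were called in 4 Tet2-WT libraries and 1 empty vector library, and 196 in 1 Tet2-WT library and all 4 empty vector libraries.

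The excess on the Tet2-WT side changed in size with the peaks admitted. When each list was shortened to its 30794 peaks of highest -log10 q, 103 regions were present with Tet2-WT only and 58 with the empty vector only. With peaks of -log10 q of at least 5 the counts were 119 and 18. Without Tet2-WT replicate 2 they were 199 and 121, and without empty vector replicate 4 they were 196 and 164, where 3 against 4 libraries make a complete difference easier to reach.

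The peaks behind these regions were lower than those of the average region. Ranked by the authors' peak values within each list, where a higher percentile is a stronger peak, they stood at a median percentile of 39.8 in the regions present with Tet2-WT only and 44.0 in those present with the empty vector only, against 46.9 over all regions tested and 77.8 in the constant regions. Regions called in 2 Tet2-WT and 2 empty vector libraries stood at 38.3, so a low percentile was not particular to the complete regions. The median width of the complete regions was 242 bp with Tet2-WT only and 210.5 bp with the empty vector only. Regions present with Tet2-WT only lay on all 20 chromosomes, with at most 12, on chromosome 2. Those present with the empty vector only lay on 17 chromosomes, with at most 5, on chromosome 16. Chromosome 2 held 3902 of the 49946 regions tested, the most of any chromosome, and chromosome 16 held 1656. A peak of the other vector began or ended within 1 kb of 38 of the 129 and of 10 of the 40 regions, and no such share was computed over other regions.

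The region with the highest median fold among those present with Tet2-WT only lay in mm9 at chr7:148541936-148542104. The fold over local background, the authors' own value in each list, was 9.26, 8.03, 9.75 and 5.20 in Tet2-WT replicates 1 to 4, and none of the 4 empty vector libraries had a peak. Its median fold of 8.65 stands at the 77.7th percentile of the lists it was called in. In libraries that did not choose it, the region was called in 1 of 4 Tet2-E libraries at day 10, 2 of 4 Tet2-WT and 1 of 4 empty vector libraries at day 5, and 2 of 4 MEF libraries. A second region present with Tet2-WT only lay 7256 bp further along, at chr7:148549361-148549602, with folds of 7.62, 7.07, 7.83 and 7.44 and no empty vector peak. That neighbour was called in 0 of 4 Tet2-E libraries at day 10, but in 3 of 4 libraries of each of Tet2-WT and the empty vector at day 5 and in 3 MEF libraries.

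A single other pair of regions present with Tet2-WT only lay within 50 kb, at chr7:91319718-91320012 and chr7:91333789-91334039. Next in height came chr3:157873123-157873287, with folds of 8.65, 8.19, 7.18 and 9.02, and chr16:48675859-48676023, with folds of 7.88, 9.45, 5.87 and 8.6. The region on chromosome 3 was called in 3 of 4 libraries of each vector at day 5 and in 2 MEF libraries. The region on chromosome 16 was called in all 4 libraries of both vectors at day 5 and in all 4 MEF libraries, and in 2 of 4 Tet2-E libraries at day 10. A different course was seen at chr5:23324434-23324846, with folds of 6.05, 11.6, 7.36 and 7.63. It was called in 0 MEF and 0 of 8 day 5 libraries of these vectors. Of the Tet2-E libraries, 1 of 4 called it at day 5 and 3 of 4 at day 10. The other 5 of the 10 tallest had median folds from 7.41 to 7.79 and lay on chromosomes 1, 6, 12 and 16.

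The tallest region present with the empty vector only lay at chr17:44592708-44592870. Its fold was 9.30, 7.77, 5.40 and 10.2 in empty vector replicates 1 to 4, with no peak in the 4 Tet2-WT libraries, and it was called in 2 of 4 libraries of each vector at day 5 and in 3 MEF libraries. The next, at chr1:90422782-90423097, had folds of 4.94, 9.15, 9.44 and 7.16 in the empty vector libraries. It was called in all 20 libraries outside the comparison, that is in MEFs, at day 5 with each vector and at day 10 with Tet2-E. Of the 28 libraries, the 4 of Tet2-WT at day 10 were thus the ones without it, although with equal list lengths 1 of the 4 empty vector libraries lost it as well. Another region, chr16:77444361-77444596, with folds of 8.63, 8.70, 6.75 and 7.04, was called in 3 MEF libraries, 4 Tet2-WT and 3 empty vector libraries at day 5 and 3 Tet2-E libraries at day 10. Each of the 10 tallest regions present with the empty vector only was called in at least 1 MEF library, and 8 of them in 3 or 4. Of the 10 tallest present with Tet2-WT only, 3 were called in 0 MEF libraries and 2 in 3 or 4. These tallest regions are part of the sets counted next, and MEF counts of other regions of like height were not computed.

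These stages hold libraries that did not choose the regions. Of the 129 regions present with Tet2-WT only, 84 were called in 0 MEF libraries (65.1%) and 8 in all 4 (6.20%). Of the 40 present with the empty vector only, 15 were called in 0 MEF libraries (37.5%) and 10 in all 4 (25%). Over all regions tested, 44.7% were called in 0 and 30.2% in all 4 MEF libraries. MEF replicates 1 to 4 called 27.1%, 13.2%, 21.7% and 19.4% of the Tet2-WT only regions, against 57.5%, 30.0%, 50% and 45.0% of the empty vector only regions. Every MEF library thus called the empty vector only regions more often, and the lowest of these 4 shares lay above the highest for Tet2-WT only regions. Over all regions tested, MEF replicates 1 to 4 called 49.4%, 36.5%, 43.8% and 41.6%.

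Most of these regions were already called at day 5 in each single Tet2-WT library, as were most of all regions tested. Tet2-WT libraries of day 5 called 56.6% to 65.1% of the Tet2-WT only regions and 65% to 77.5% of the empty vector only regions. Empty vector libraries of day 5 called 44.2% to 62.0% of the first set and 55% to 75.0% of the second. Over all regions tested, Tet2-WT libraries of day 5 called 67.7% to 72.2% and empty vector libraries 62.4% to 74.1%. Each of these libraries called the Tet2-WT only regions less often than all regions tested. The same held for regions called at day 10 in 2 Tet2-WT and 2 empty vector libraries. Of those, Tet2-WT libraries of day 5 called 60.2% to 67.1% and empty vector libraries 50.6% to 69.9%. Complete in the same direction at day 5 were 2 of the 129 regions and 0 of the 40. On a merge of the day 5 libraries alone, 0.239% of regions tested were present with Tet2-WT only and 0.0806% with the empty vector only. More Tet2-WT than empty vector libraries called 52 of the 129 regions at day 5, fewer called 26 and equally many called 51. Over all regions tested, 12393 (24.8%) were called in more and 7935 (15.9%) in fewer, so these leaned the same way. For the 40 empty vector only regions, the counts of more, fewer and equally many were 14, 11 and 15. Open in neither MEFs nor any day 5 library were 8 of the 129 and 0 of the 40 regions, and the share over all regions tested was not computed.

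Tet2-E libraries at day 10, which carried the stalling mutant instead of the wild-type enzyme, called 25.6% to 61.2% of the Tet2-WT only regions and 32.5% to 55% of the empty vector only regions. The ranges overlapped, and over all regions tested the same libraries called 45.3% to 69.4%. All 4 Tet2-E libraries called 7 of the 129 (5.43%) and 3 of the 40 regions (7.5%), and none called 16 (12.4%) and 9 (22.5%). Over all regions tested, 31.2% were called in all 4 and 15.5% in none. Among regions called in 2 Tet2-WT and 2 empty vector libraries, these shares were 6.36% and 12.1%.

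**Figure D3:**
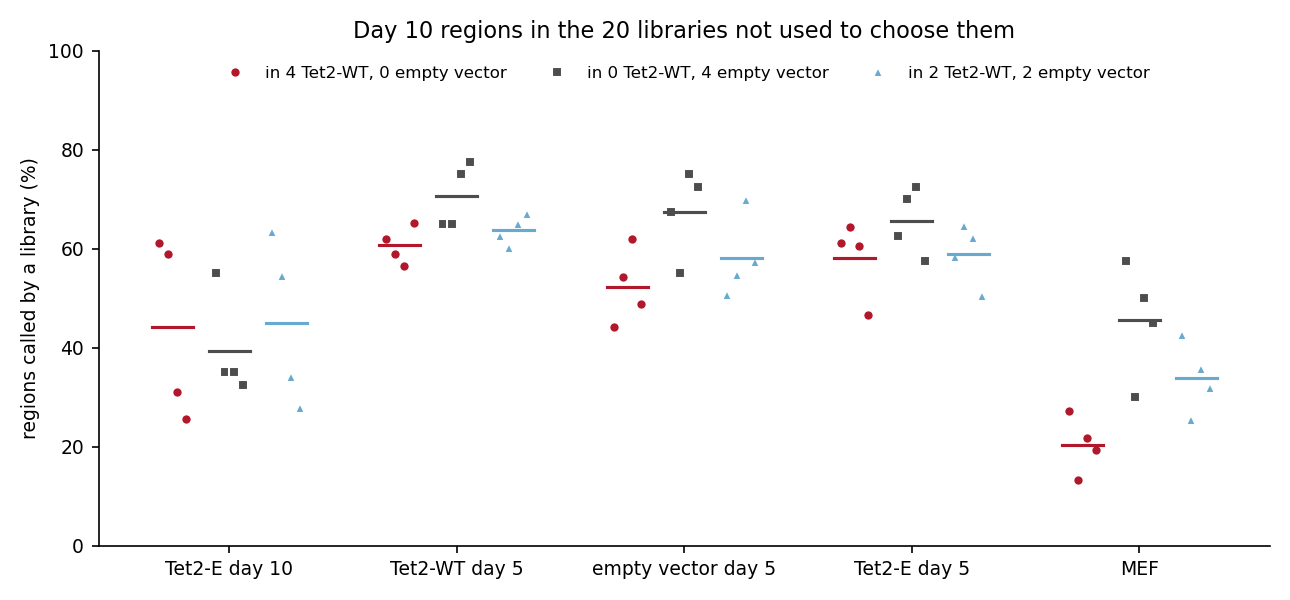
Percentage of day 10 regions called by each of the 20 libraries that were not used to choose them, for the 129 regions in 4 Tet2-WT and 0 empty vector libraries, the 40 regions in 0 and 4, and the 2846 regions in 2 and 2. Points are libraries and short lines their means. In MEFs the 3 sets average 20.3%, 45.6% and 33.9%, and at day 10 with Tet2-E they overlap.

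The difference in MEF share was graded, with regions of incomplete difference in between. Regions called in exactly 4 of the 8 libraries are alike in how often they were called, and are split by which vector called them. MEF libraries called on average 20.3% of those with 4 Tet2-WT and 0 empty vector libraries, 30.9% of the 1484 with 3 and 1, 33.9% of the 2846 with 2 and 2, 35.5% of the 843 with 1 and 3, and 45.6% of those with 0 and 4. The median width of these 5 sets ran from 204 to 242 bp and their median list percentile from 38.3 to 44.0. The mirrored sets at other totals behaved in the same way. Regions in 3 Tet2-WT and 0 empty vector libraries had a MEF share of 23.5%, against 33.0% for those in 0 and 3. Regions in 4 and 1 had 27.6%, against 47.1% for those in 1 and 4. Over 7 mirrored pairs of sets and 4 MEF libraries, the set that leaned to Tet2-WT had the lower MEF share in 28 of 28 values.

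The same order held with equal list lengths, a setting in which the MEF lists were also limited to 30794 peaks. The MEF shares of this setting are therefore not on the same footing as those above. There the MEF share was 15.0% of the 103 regions present with Tet2-WT only and 30.6% of the 58 present with the empty vector only, and again 28 of 28 values were lower on the Tet2-WT side. Without Tet2-WT replicate 2, the library with the most private regions, the shares were 20.1% and 46.5%. These sets were chosen with day 10 values known, so no p is given, and the values of 1 MEF library across sets are not independent. The share of feeder MEFs left in the sorted cells of each library, and the background pileup given above, may differ between vectors, and their part in the MEF shares was not tested.

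**Figure D4:**
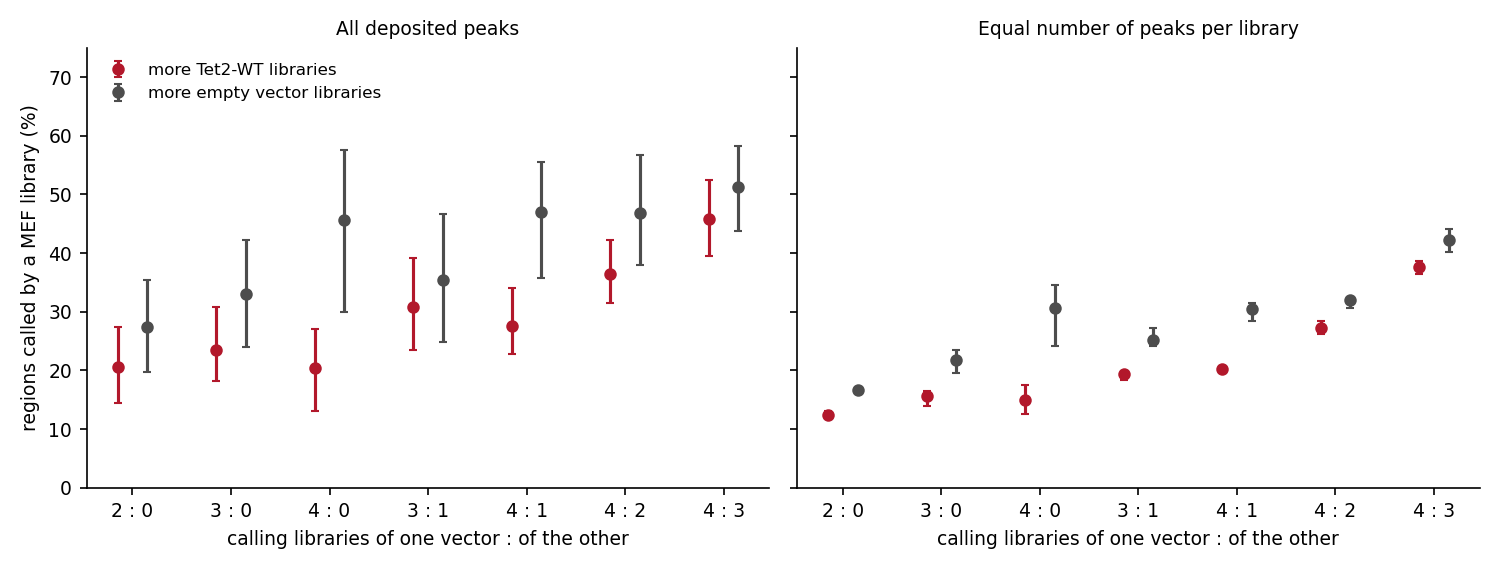
Percentage of regions called by a MEF library, for regions that leaned to Tet2-WT and for those with the mirrored counts that leaned to the empty vector, with all deposited peaks and with 30794 peaks per library. Points are means over the 4 MEF libraries and bars run from the lowest to the highest of them. In each of the 7 pairs the set that leaned to Tet2-WT lies lower, as for 4 against 0 with 20.3% and 45.6%.

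Measured per library instead of per region, the same relation did not pass. Peaks that overlapped any MEF peak made up 57.4%, 50.3%, 56.3% and 62.7% of the lists in Tet2-WT replicates 1 to 4, and 57.0%, 59.2%, 59.6% and 63.0% in empty vector replicates 1 to 4. Tet2-WT replicate 2 was the lowest of the 8, and the other 3 overlapped with the controls (difference -3.07 percentage points, exact permutation p = 0.371, adjusted p = 0.669). With equal list lengths, MEF lists included, the difference was -1.66 points (exact permutation p = 0.114). Of the 27913 regions that all 4 MEF libraries called, 45.3% ± 3.90 were still called with Tet2-WT and 44.6% ± 2.34 with the empty vector (SD, n = 4 each, exact permutation p = 0.83). Of the 20277 regions that all 8 day 5 libraries of these vectors called, 86.4% ± 5.51 were still called with Tet2-WT and 85.0% ± 3.48 with the empty vector (exact permutation p = 0.629). Among day 10 peaks, 89.8% ± 5.02 with Tet2-WT and 91.9% ± 1.86 with the empty vector overlapped a day 5 peak (exact permutation p = 0.6). Chromosome X held 2.24% ± 0.151 of the peaks with Tet2-WT and 2.13% ± 0.0668 with the empty vector (exact permutation p = 0.2), and none of the 20 chromosomes passed (lowest adjusted p = 0.762).

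The vector difference at day 10 was set beside that at day 5 by exact permutation of the vectors within each day. For list length the difference was 3026 peaks at day 10 and 2966 at day 5 (2-sided exact permutation p = 0.992), and the difference between the days passed for 0 of 7 measures (lowest exact permutation p = 0.367, adjusted p = 0.992). On a merge of their own, the 8 day 5 libraries held 154 regions with Tet2-WT only and 52 with the empty vector only, 0.239% and 0.0806% of 64540 tested. Their MEF shares were 24.4% and 26.4%, while regions in 3 and 0 had 22%, against 29.6% for those in 0 and 3. Tet2-E against the same empty vector libraries at day 10 gave 57 and 46 complete regions of 48201 tested, with MEF shares of 41.7% and 44.6%. Its regions in 3 and 0 had 27.6%, against 33.0% for those in 0 and 3, and its regions in 3 and 1 had 31.0%, against 37.6% for those in 1 and 3, so the same order was present with Tet2-E in each of these pairs. Those 2 comparisons at day 10 share the empty vector libraries, and the difference between them was not tested.

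Broad stretches of the genome were examined as the number of peaks in 1 Mb windows per 10000 peaks of the library. Of 1434 windows with at least 10 peaks on average, 0 passed with limma (adjusted p under 0.05). At unadjusted p under 0.05 there were 54, or 3.77% of those tested, 25 higher and 29 lower with Tet2-WT. The median difference over all windows was -0.01 on the log2 scale, and 90% of windows lay between -0.23 and 0.23 with a median SE of 0.14.

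The window nearest to passing spanned 154 to 155 Mb of chromosome 1. It held 9.34, 7.71, 8.80 and 11.4 peaks per 10000 in Tet2-WT replicates 1 to 4, against 8.05, 5.41, 6.46 and 6.74 in empty vector replicates 1 to 4. Only empty vector replicate 1 reached into the Tet2-WT range. The difference was 0.46 on the log2 scale with an SE of 0.12 (limma, unadjusted p = 0.000116, adjusted p = 0.166). Of its 40 regions, 21 were called in more Tet2-WT than empty vector libraries, 4 in fewer and 15 in equally many, and 1, at chr1:154790209-154790432, was complete. Over all regions tested, 29.8% were called in more Tet2-WT libraries and 20.7% in fewer. Because the window was picked from these same peaks, a lean of its regions was built in and is no separate support. The window passed with equal list lengths (log2 difference 0.53, limma adjusted p = 0.0334), without Tet2-WT replicate 2 (0.55, adjusted p = 0.0282) and without empty vector replicate 1 (0.55, adjusted p = 0.0280). In the other 10 settings it did not pass, with log2 differences from 0.36 to 0.48 and limma adjusted p from 0.105 with the replicate block to 0.998 without empty vector replicate 3. At day 5 it held 7.84 ± 1.00 peaks per 10000 with Tet2-WT and 8.05 ± 0.936 with the empty vector (SD, n = 4 each), so the day 10 order was not present there. At day 10 with Tet2-E it held 8.57 ± 0.343, and in MEFs 6.76 ± 0.635.

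Among the other windows with the smallest p, Tet2-WT was above every empty vector library at 3 to 4 Mb of chromosome 4 (log2 difference 0.43, SE 0.15, limma adjusted p = 0.991) and at 107 to 108 Mb of chromosome 11 (0.38, SE 0.13, same adjusted p). It was below every empty vector library at 75 to 76 Mb of chromosome 9 (-0.35, SE 0.12) and at 4 to 5 Mb of chromosome 16 (-0.29, SE 0.11), also with an adjusted p of 0.991. In all, Tet2-WT and empty vector libraries did not overlap in 31 windows, 16 higher and 15 lower with Tet2-WT, which is 2.16% of those tested.

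**Figure D5:**
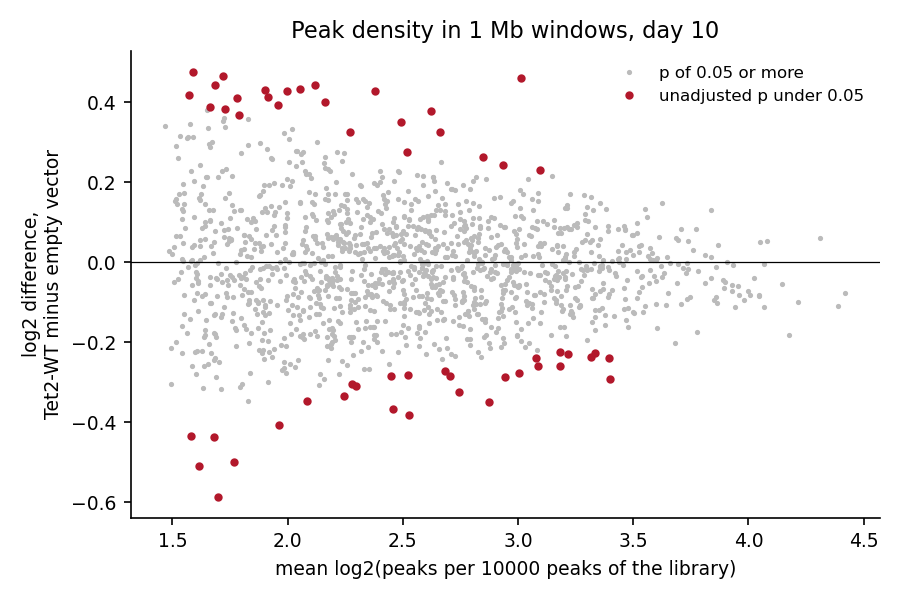
Log2 difference in peak density, Tet2-WT minus empty vector, against mean log2 peak density per 10000 peaks, for 1434 windows of 1 Mb at day 10. Each point is a window, and the 54 at unadjusted p under 0.05 are drawn in red. The window at 154 Mb of chromosome 1 lies at a difference of 0.46 and a mean log2 density of 3.01.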

How the data were processed

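The authors deposited 1 MACS2 peak list per library, not pooled. Per the submitters' processing notes, the tools were Bowtie2, SAMtools, bedtools and MACS2 and the build was mm9; their versions and settings, and the read totals, are not given by any source used here. Each deposited list holds, per peak, a fold (a ratio of summit pileup plus 1 to local background plus 1), a -log10 p and -log10 q, and a score of 10 times the -log10 q (rounded down, for all but 10 of 305785 peaks). The lowest -log10 q was 2.00. Fold and q are each list's own values; regions were ranked by their median fold over the lists that called them, and 1 threshold on q was applied to each list. Whole pileups that give both the fold and the p were found for 100% of peaks (tolerance 0.0002), and the commonest background stands for depth, which the lists do not state directly.

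Overlapping peaks of the 8 lists on chromosomes 1 to 19 and X were merged (1 bp). Regions in at least 2 libraries were tested by Fisher's exact test, windows with limma 3.58.1 in R 4.3.3 on log2(peaks + 1, per 10000), and library values by exact permutation of 4 against 4, with Benjamini-Hochberg adjustment. Replicate numbers were not used to pair the libraries in the main tests. The background pileup fell in the order of replicate number in both vectors, and the cause of this shared order was not tested. Named regions were the 10 complete ones per direction with the highest median fold, and named windows the 5 per direction with the smallest p. The members, lists and tests were chosen with earlier results of these data known. The annotation at hand is of another build, so regions carry no gene names, gene lists were not used, and Tet2 itself was not checked in the libraries. No sequence of mm9 was used here.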

Additional observations from a re-analysis of the deposited data

Results flagged for a closer look

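In the window at 106 to 107 Mb of chromosome 14, Tet2-WT replicate 2 stood apart from the other libraries of its group, with 3.76 peaks per 10000 against 1.97, 2.20 and 1.95 in replicates 1, 3 and 4. The empty vector libraries held 3.42 to 3.85, so this one library lay in the range of the controls. Of 40 groups of 4 examined in this way 1 stood apart, and chance gives about 1 in 20.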

How the results depend on the processing

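Regions past correction numbered 0 in each setting, as the design made likely: 4 against 4 libraries allow no p below 0.0286, and the exact sign test over replicate numbers (replicate block, count 0) none below 0.125, so these counts say nothing about stability. Complete regions on the empty vector side fell to 18 at -log10 q of at least 5. Leaving out 1 library gave 196 to 431 complete regions with Tet2-WT only and 61 to 164 with the empty vector only. The MEF share of the empty vector only regions was 30.6% with equal list lengths, where the MEF lists were shortened as well. It was 33.5% to 51.2% with 1 library left out. That of the Tet2-WT only regions was 32.6% where peaks had to cover 50% of a region (52.8% for the empty vector only regions there). It was 19.9% to 25.8% with 1 library left out. The settings for MEF shares were chosen after seeing the data. Windows past the threshold numbered 1 with equal list lengths, 0 to 1 with 1 library left out, and 0 in the other settings, the replicate block included (smallest adjusted p = 0.105).

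None of the 9 library measures had an adjusted p under 0.05 in any setting, with the same floors on the unadjusted p. Without Tet2-WT replicate 4 the background pileup differed by 0.104 and the groups did not overlap (exact permutation p = 0.0286, unadjusted). The difference in the share of MEF regions called reversed to -0.32 points with equal list lengths, MEF lists included. With 1 library left out, it ran from -0.67 to 2.02 points, that in peaks per list from -627 to 5959, in day 5 regions called from -0.0760 to 3.76 points, in peaks overlapping day 5 from -3.52 to 0.34 points, and the Jaccard difference from -0.0048 to 0.00711. The cause was not tested. Of the 20 named regions, 16 stayed complete with equal list lengths, 10 at the stricter q and 8 where peaks had to cover 50%. Same-numbered libraries correlated at 0.00492 to 0.0276, too little to count as pairs, though replicates 1, 2 and 3 of Tet2-WT correlated best with their own number. Peaks near genes were not run, with no annotation of mm9 at hand. Depth limits each value to presence above the authors' threshold.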
